A study of Homo sapiens with 8 samples.

Results

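NEURL1 and 9 other genes of the Notch pathway were followed in RNA-seq of ESO26 cells, with and without siRNA against HNF4A. The genes were taken by name (NEURL1, NEURL1B, MIB1, JAG1, JAG2, DLL4, NOTCH1, NOTCH2, NOTCH3 and HES1), and all 10 were found among the 30755 symbols of the table. NEURL1 was chosen because it rose in the knockdown, so its own values are given as a description without a test. ESO26 is a human cell line that was established from adenocarcinoma of the oesophagus. The knockdown group held 2 libraries from cells given siRNA against HNF4A, a nuclear receptor of gut and liver epithelium, and the control group held 2 libraries of ESO26 cells labelled only as control. The kind of control siRNA, the dose and the time after transfection are not given in the labels. Nor do the labels say whether both knockdown libraries were given the same siRNA sequence. The series' text speaks of triplicates. The labels do not say that the libraries came from separate cultures, so p-values speak only for these libraries. They rest on the spread between libraries, with variances shared across genes. All libraries are of 1 cell line in bulk, where fewer cells of a type and less RNA per cell cannot be told apart.

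Notch signalling passes between touching cells. A ligand of the Jagged or Delta-like family on one cell binds a Notch receptor on its neighbour, and the ligand has to be ubiquitinated and internalised in the sending cell to activate that receptor. The Mindbomb ligases (MIB1, MIB2) and the Neuralized ligases (NEURL1, NEURL1B) attach the ubiquitin. The receptor is then cut by ADAM proteases and by gamma-secretase, and its freed inner part joins RBPJ and Mastermind-like proteins to switch on genes such as HES1. In the intestinal epithelium HES1 is known to hold down ATOH1, the factor that directs cells to secretory fates.

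Values are the authors' normalized counts per gene, and fold changes are log2(normalized count + 1) in the knockdown minus control. The 4 libraries summed to between 17912507 and 18613685 normalized counts. The number of reads behind a value is unknown, and the share of the table at 0 was smaller after knockdown (4260 and 4362 genes) than in the controls (5479 and 5640 genes), a difference whose part in the results for low genes was not tested. HNF4A itself was at 4129 and 3937 normalized counts in the controls against 1139.8 and 932 after knockdown. This gave a log2 fold change of -1.97 (standard error, SE, 0.095, adjusted p = 1.59e-05, limma), and both knockdown libraries lay below both controls. All 7 columnar epithelial markers checked were detected in every library, among them EPCAM at 25094 or more normalized counts. In limma 3 of them fell (EPCAM, KRT8 and KRT18, by 0.29, 0.43 and 0.51 on the log2 scale) and 2 rose (KRT19 by 0.22 and CDH17 by 0.20). No squamous marker in the table exceeded 32.6, and those listed moved in different directions. KRT14 was higher after knockdown (controls 0.637 and 2.29, knockdown libraries 12.2 and 25.7). KRT5 was lower (controls 32.6 and 12.1, knockdown libraries 6.14 and 10.5). KRT13, at most at 1.05, was lower too, and the groups overlapped for DSG3. Of 15577 genes tested, 14.1% were called at an adjusted p under 0.05 in limma, 6.02% as higher and 8.11% as lower in the knockdown.

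NEURL1 was the member that differed most. It had 63.2 and 41.3 normalized counts in the control libraries and 232 and 193 in the knockdown libraries. Both knockdown libraries were thus well above both controls, with 52.3 ± 15.5 against 212 ± 27.9 (SD, n = 2 in each group), a 4.06-fold ratio of the means. The log2 fold change was 2.03 with an SE of 0.24. It ranked 41 from the top among the 15577 genes tested and 5 from the top among the 12111 whose mean reached 50. Leaving out control replicate 1 gave 2.33 and leaving out control replicate 2 gave 1.73, so the lower of the 2 control values bears on the size of the rise. NEURL1 lies on chromosome 10 from 103493705 to 103592546 (RefSeq, GRCh38.p14) and overlaps the antisense gene NEURL1-AS1. NEURL1-AS1 had no entry under that symbol, and neither did LOC124902496, which also overlaps NEURL1. The counting is not stated to use strand, so reads of NEURL1 and of these overlapping genes cannot be told apart.

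**Figure D1:**
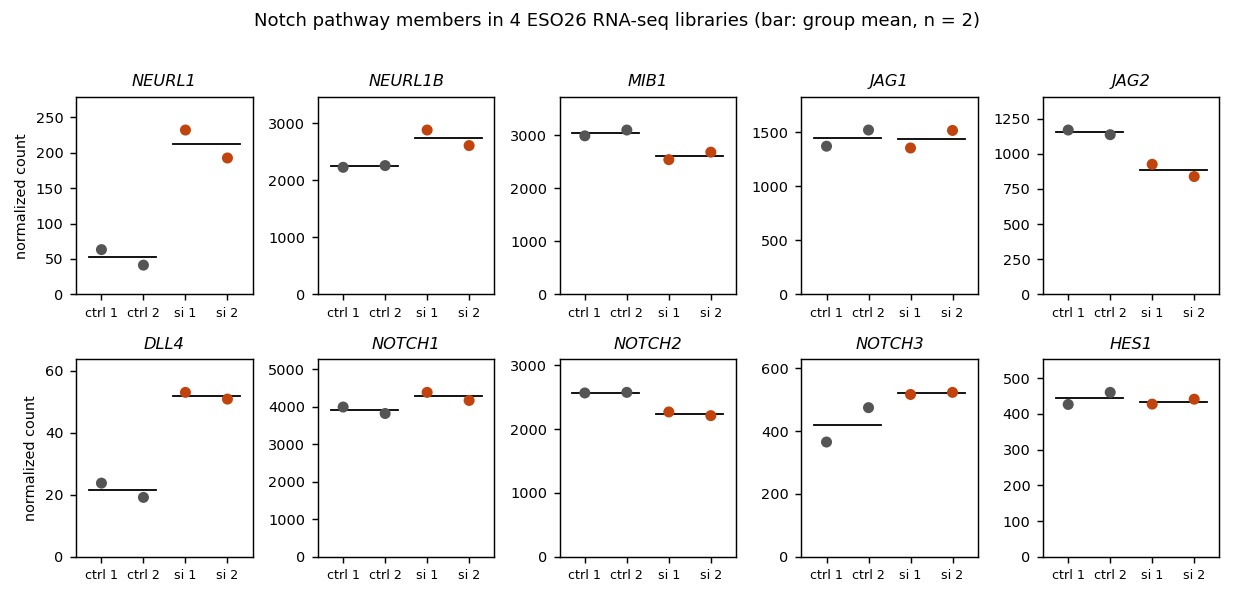
Normalized count (vertical axes, each starting at 0) of the 10 Notch pathway genes in control libraries 1 and 2 (grey) and siHNF4A libraries 1 and 2 (orange), with a bar at each group mean (n = 2). NEURL1 and DLL4 stand clearly higher in the knockdown libraries, JAG2 is lower, and the groups overlap for JAG1 and HES1.

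Of the genes next to NEURL1, CALHM2, SH3PXD2A and SLK could be tested. Upstream, CALHM2, a channel family gene, had 63.0 and 61.3 normalized counts in the controls against 67.3 and 69.9 after knockdown (log2 fold change 0.14, SE 0.23, adjusted p = 0.736 in limma). CALHM1 and CALHM3, which lie between CALHM2 and NEURL1, stayed at or below 5.06 in every library and were not tested. Downstream, SH3PXD2A, which encodes a scaffold protein of invasive cell protrusions, rose from 655 and 731 to 952 and 983 (log2 fold change 0.48, SE 0.095, adjusted p = 0.0092 in limma). This call was lost without siHNF4A replicate 2 (adjusted p = 0.0605 in limma) and was made without any other 1 library. The next gene, SLK, a protein kinase, had 1418 and 1386 in the controls against 1387 and 1363 after knockdown (log2 fold change -0.028, adjusted p = 0.844 in limma). RN7SL524P, beyond SLK, was at most at 2.06 and was not tested.

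Of the 9 members other than NEURL1, 3 passed the test, NEURL1B and DLL4 as higher and JAG2 as lower in the knockdown, beside 14.1% over all tested genes. The groups did not overlap for 7 of these 9 genes, beside 57% of all tested genes. Of the 7, 4 were higher (26.9% of all tested genes) and 3 lower (30.1%). The median log2 fold change of the 9 was -0.011, and that of all tested genes was -0.0073. Without siHNF4A replicate 1 only JAG2 was called among the 9, beside 7.07% of all tested genes, and without siHNF4A replicate 2 only NEURL1B, beside 6.5%. The members had no common direction.

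Among the ligases that ubiquitinate Notch ligands, NEURL1B rose with NEURL1, and the Mindbomb genes had lower values that did not pass the test. NEURL1B, the paralog of NEURL1, had 2227 and 2258 normalized counts in the controls against 2880.5 and 2608 after knockdown. It rose 1.22-fold, with a log2 fold change of 0.29 (SE 0.072, adjusted p = 0.0265 in limma). Both knockdown values were above both controls, and the siHNF4A libraries spread more than the controls. Without siHNF4A replicate 1 the log2 fold change was 0.22 and the call was lost (adjusted p = 0.188 in limma). MIB1, the main ligase for Notch ligands in mammals, had 2989.5 and 3099 in the controls against 2541 and 2682 after knockdown, so that both knockdown values were lower. Its difference of -0.22 on the log2 scale (95% interval -0.37 to -0.074) lay just short of the threshold (adjusted p = 0.0522 in limma), and was past it when only genes with a mean of at least 50 were tested (adjusted p = 0.0374). MIB2, with 1037 ± 32.6 against 884 ± 107 (SD, n = 2 in each group), was not called either (adjusted p = 0.158 in limma).

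Of the more distant Neuralized relatives, the 2 tested were not called in limma, beside 14.1% of all tested genes that were. Of these 2, 0 had an unadjusted p under 0.05 in limma, beside 4504 of the 15577 tested genes. NEURL3 had 204 ± 10.9 normalized counts in the controls and 207 ± 20.4 in the knockdown (SD, n = 2), and the log2 fold change of 0.016 had a 95% interval from -0.33 to 0.36. NEURL4 had a log2 fold change of 0.073 with an interval from -0.23 to 0.38. NEURL2 had a mean under 10 and was not tested. RefSeq lists NEURL3 also as a synonym of NEURL1B, but the table holds separate entries for the pair.

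The ligands moved in different directions. DLL4, a Delta-like ligand known for its part in blood vessel sprouting and also made by intestinal epithelium, was low, with 23.7 and 19.1 normalized counts in the controls against 53.0 and 50.8 after knockdown. The ratio of the means was 2.42, and the log2 fold change was 1.24 (SE 0.31, adjusted p = 0.0263 in limma). The values within each group lay close together and the groups did not overlap. The call of DLL4 was made without control replicate 1 but not without any other library. It was lost without control replicate 2 (log2 fold change 1.10, adjusted p = 0.0546), without siHNF4A replicate 1 (1.22, adjusted p = 0.144) and without siHNF4A replicate 2 (1.27, adjusted p = 0.128, all in limma). Of the 2 endothelial markers measured beside DLL4, VWF was at 8.55 and 6.68 in the controls and at 47.5 and 36.4 in the knockdown libraries, while CDH5 was at 16.0 and 8.48 in the controls against 16.5 and 10.7 after knockdown. CDH5 was not called (log2 fold change 0.17, adjusted p = 0.861 in limma). PECAM1 and KDR, also looked up as endothelial markers, were not among the listed symbols. The part of VWF and CDH5 in the DLL4 result was not tested. The controls of VWF were under the minimum mean of 10, so it entered the test only through its knockdown values and no p is given.

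JAG2, a Jagged ligand, fell by 23.5%, from 1169 and 1136 normalized counts in the controls to 925 and 838 in the knockdown libraries. The log2 fold change was -0.39 (SE 0.088, adjusted p = 0.0177 in limma) and the groups did not overlap. Without siHNF4A replicate 2, the lower of the knockdown libraries, it was -0.32 and not called (adjusted p = 0.118 in limma). JAG1, the other Jagged ligand, had 1372 and 1522 in the controls against 1356 and 1518 after knockdown, and each knockdown value lay near a control value. Its log2 fold change was -0.011 with a 95% interval from -0.21 to 0.19 (adjusted p = 0.953 in limma), and the sign depended on the scaling (0.032 after quantile normalization). DLL1, a ligand of secretory progenitors in the gut, had 558 ± 27.8 in the controls and 659 ± 35.6 in the knockdown (SD, n = 2) and was not called (adjusted p = 0.156 in limma).

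None of NOTCH1, NOTCH2 and NOTCH3 passed the test in limma, beside 14.1% of all tested genes that did. An unadjusted p under 0.05 was found in limma for 2 of them, beside 4504 of the 15577 tested genes. The groups did not overlap for any of these 3 receptors, as for 57% of all tested genes. NOTCH1 had 3995 and 3823 normalized counts in the controls against 4387 and 4171 after knockdown, a log2 fold change of 0.13 with a 95% interval from -0.0085 to 0.27 (adjusted p = 0.201 in limma). NOTCH2 had 2566 and 2575 in the controls against 2268 and 2210.5 after knockdown, a log2 fold change of -0.20 (interval -0.35 to -0.052, adjusted p = 0.0737 in limma). The replicates of NOTCH2 lay close together, and both knockdown libraries were lower. NOTCH2 has near-identical partial copies, and NOTCH2NL, one of them, was also lower (527 and 482 in the controls, 427 and 376 in the knockdown, adjusted p = 0.0937 in limma), so reads may be divided between these genes.

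NOTCH3, a receptor best known from vascular smooth muscle, had 366 and 475 normalized counts in the controls against 517 and 524 after knockdown. The controls differed more from each other than the higher control differed from the knockdown libraries. The log2 fold change of 0.32 (interval 0.017 to 0.62) was not called (adjusted p = 0.152 in limma), and without control replicate 2 it was 0.51 and called (adjusted p = 0.0205), while without control replicate 1 it was 0.13 (adjusted p = 0.588). NOTCH4 had 9.28 ± 1.63 and 13.5 ± 2.69 normalized counts (SD, n = 2). Its control mean was under the minimum of 10, so it entered the test only through its knockdown values and no test is given.

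HES1, the transcriptional repressor that serves as the classical readout of Notch activity, was not called. It had 426 and 460.3 normalized counts in the controls against 427 and 441 after knockdown, so that the knockdown values fell between the control values. The log2 fold change was -0.029 with a 95% interval from -0.28 to 0.22 (adjusted p = 0.896 in limma). Of the 3 other genes regarded as Notch targets that were tested, 1 was called, beside 14.1% of all tested genes. NRARP, a feedback inhibitor of the receptor complex, rose from 1017 and 1097 to 1273 and 1322 (log2 fold change 0.30, SE 0.083, adjusted p = 0.0408 in limma). The call of NRARP was lost without control replicate 1 (adjusted p = 0.129), siHNF4A replicate 1 (0.114) or siHNF4A replicate 2 (0.189, all in limma). HES4 had 263 ± 1.26 and 256 ± 26.2 (SD, n = 2), with overlapping groups, and HES2 was not called (adjusted p = 0.336 in limma). HES5, HEY1, HEY2 and HEYL had means under 10 and were not tested.

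The stretches before the starts of NEURL1, its paralog NEURL1B and HES1 are shown because they hold letters of binding motifs for factors of the pathway. They are the 250 bases before the RefSeq start in GRCh38.p14, 5′ to 3′ on the strand of the gene: chr10:103493455-103493704 (+ strand) for NEURL1, chr5:172641013-172641262 (+ strand) for NEURL1B and chr3:194135898-194136147 (+ strand) for HES1. Capitals mark TGGGAA, the core that RBPJ binds, and CACNAG, the N-box bound by HES factors, each searched on both strands. No marked motifs overlap.
NEURL1: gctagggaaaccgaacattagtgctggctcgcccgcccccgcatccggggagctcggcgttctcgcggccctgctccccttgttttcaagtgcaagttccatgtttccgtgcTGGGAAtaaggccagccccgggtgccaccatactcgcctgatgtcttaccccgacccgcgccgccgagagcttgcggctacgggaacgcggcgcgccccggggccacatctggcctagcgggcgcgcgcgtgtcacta
NEURL1B: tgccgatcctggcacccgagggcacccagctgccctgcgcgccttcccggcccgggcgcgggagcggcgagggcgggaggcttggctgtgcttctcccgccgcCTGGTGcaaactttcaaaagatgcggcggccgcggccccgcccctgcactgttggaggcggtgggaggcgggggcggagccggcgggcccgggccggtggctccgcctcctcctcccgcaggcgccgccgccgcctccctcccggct
HES1: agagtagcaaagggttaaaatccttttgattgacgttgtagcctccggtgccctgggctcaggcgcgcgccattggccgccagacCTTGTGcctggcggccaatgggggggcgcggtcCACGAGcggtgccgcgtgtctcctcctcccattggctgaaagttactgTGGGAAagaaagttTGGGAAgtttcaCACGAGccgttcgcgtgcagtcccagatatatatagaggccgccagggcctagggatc

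HES1 held 2 RBPJ cores, from 84 to 79 and from 70 to 65 bases before the start, and 3 N-boxes. NEURL1 held 1 RBPJ core, from 138 to 133 bases before its start, and no N-box. NEURL1B held 1 N-box on the minus strand and no RBPJ core. The window listed for MIB1 lies inside the gene and is left out here. Among the 9 other members, NEURL1 and HES1 were the only genes with an RBPJ core in this window, against 20.9% of the 35097 promoter windows of this length in the RefSeq table. An N-box was in the windows of NEURL1B, NOTCH3 and HES1, against 32.0% of all windows. The letters CACGTG (an E-box, in 6.34% of all windows) and CAAAGTCCA (a core of the HNF4 repeat, in 0.325%) were not in any of these 9 windows. The 9 windows were 59.2% to 81.6% G and C, beside a median of 58.0% over all windows. These matches describe letters and are not binding sites shown in these cells.

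The wider pathway was then described by role, for 53 tested genes, leaving out NEURL1 and NOTCH4. Of these, 11 were called in limma, 7 higher and 4 lower, which is 20.8%, beside 14.1% of all tested genes (6.02% higher and 8.11% lower). Their median log2 fold change was -0.018. After quantile normalization 9 were called, 8 higher and 1 lower, in a fit that called 13.3% of all tested genes, 6.68% higher and 6.59% lower. Without siHNF4A replicate 1 and without siHNF4A replicate 2, 4 of the 53 were called each time, beside 7.07% and 6.5% of all tested genes. Without the members, 44 genes remained, with 5 called higher and 3 lower (18.2% in all). The lists were chosen with earlier results of these data known, so these counts are no support for a pattern. Of the proteins that internalise ligands, EPN1, an epsin adaptor, rose from 1186 ± 23.8 to 1630.4 ± 56.4 normalized counts (SD, n = 2, log2 fold change 0.46, adjusted p = 0.0045 in limma). DNM2, the dynamin that pinches off vesicles, rose by 0.25 on the log2 scale (adjusted p = 0.0272), whereas EPN2 was not called (log2 fold change -0.31, adjusted p = 0.153, both in limma). The call of DNM2 was lost without control replicate 2 or either knockdown library (adjusted p = 0.0589, 0.140 and 0.107 in limma), while that of EPN1 was made without any 1 library.

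Among the enzymes that add sugars to Notch receptors, LFNG, a Fringe enzyme that tunes which ligands a receptor answers to, rose from 1846 and 1920 to 2683 and 2396 normalized counts (log2 fold change 0.43, SE 0.077, adjusted p = 0.0061 in limma). Both knockdown libraries were above both controls, and without siHNF4A replicate 1 the adjusted p was 0.0530 in limma. POGLUT1, which adds glucose to the receptor, fell by 0.42 on the log2 scale (adjusted p = 0.0433 in limma), a call lost after quantile normalization (adjusted p = 0.0650) and without control replicate 1 (0.172) or either knockdown library (0.0970 and 0.187, all in limma). POFUT1, which adds fucose, was at 2155 ± 97.2 and 2127 ± 31.2 (SD, n = 2), and RFNG was not called.

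The enzymes that cut the receptor gave 1 call in 9 genes (11.1%, beside 14.1% of all tested genes). ADAM17 had 2006 ± 71.4 normalized counts in the controls and 1669 ± 51.9 after knockdown (SD, n = 2) and thus fell by 0.26 on the log2 scale (adjusted p = 0.0383 in limma), and ADAM10, the protease mainly used in ligand-driven cleavage, was at 3654 ± 88.7 and 4158 ± 94.2 without a call (adjusted p = 0.0704, and 0.0238 after quantile normalization). The ADAM17 call was lost after quantile normalization (adjusted p = 0.0674), and without control replicate 2 or either knockdown library (adjusted p = 0.130 without control replicate 2 and 0.186 without siHNF4A replicate 1, in limma). The gamma-secretase genes PSEN2, NCSTN, APH1A, APH1B and PSENEN were not called, with log2 fold changes from -0.66 for PSEN2 (adjusted p = 0.0756) to 0.27 for PSENEN (adjusted p = 0.229 in limma). PSEN2 was called with the replicate block (adjusted p = 0.00621), without control replicate 2 (-0.87, 0.00787) and without siHNF4A replicate 1 (-0.98, 0.0223, all in limma). Leaving out control replicate 1 gave PSEN2 a value of -0.44 (adjusted p = 0.180) and leaving out siHNF4A replicate 2 one of -0.33 (adjusted p = 0.383, both in limma), neither of them called.

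None of the 6 genes of the nuclear activator complex was called in limma, beside 14.1% of all tested genes. Of the 6 genes of this complex, 1 had an unadjusted p under 0.05 in limma, beside 4504 of the 15577 tested genes. RBPJ, its DNA-binding subunit, had 2573 ± 286 and 2559 ± 86.3 normalized counts (SD, n = 2). Its log2 fold change of -0.0035 had a 95% interval from -0.19 to 0.18. The coactivator genes MAML1, MAML2 and MAML3 had log2 fold changes of -0.080, 0.48 and 0.58 (adjusted p = 0.452, 0.160 and 0.219 in limma). Of 8 corepressor genes 2 were called, beside 14.1% of all tested genes. An unadjusted p under 0.05 was found in limma for 7 of the 8, beside 4504 of the 15577 tested genes. HDAC1, a histone deacetylase, rose from 4153 ± 50.9 to 5394 ± 326 (SD, n = 2, adjusted p = 0.0046 in limma). NCOR1 fell by 0.22 on the log2 scale (adjusted p = 0.0484), a call that was lost after quantile normalization (adjusted p = 0.0912), after median-ratio rescaling (0.0507) and without control replicate 2 or either knockdown library (0.178, 0.236 and 0.115, all in limma). None of the 7 tested genes for receptor turnover was called in limma, beside 14.1% of all tested genes. Of the 7, 3 had an unadjusted p under 0.05 in limma, beside 4504 of the 15577 tested genes. NUMB, an inhibitor that divides unequally between daughter cells, was at 3069 ± 87.0 and 3077 ± 58.0 (SD, n = 2).

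**Figure D2:**
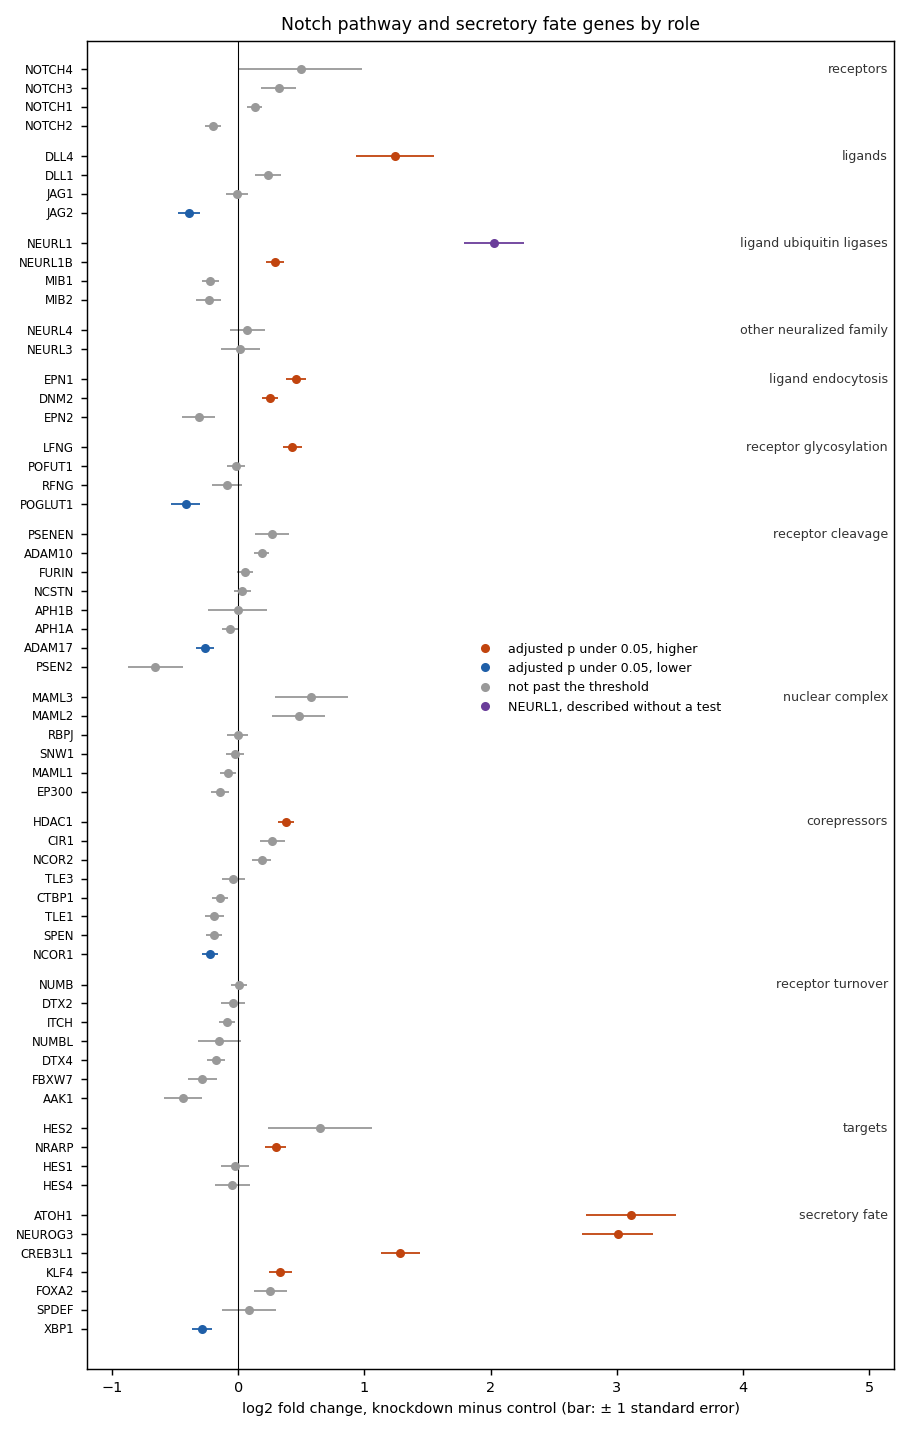
Log2 fold change, knockdown minus control (horizontal axis, with bars of ± 1 standard error), of the tested pathway and secretory fate genes but 1, grouped by role. NEURL1, DLL4, ATOH1, NEUROG3 and CREB3L1 lie above 1, and most other genes lie within 0.5 of 0.

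Genes of the secretory fate, which Notch activity is known to restrain in the gut, held the highest fold changes of the lists. ATOH1, the bHLH factor that starts secretory fates, was at 7.33 and 7.76 normalized counts in the controls against 63.2 and 84.1 after knockdown, a 9.76-fold ratio of the means (log2 fold change 3.11, SE 0.36). NEUROG3, the bHLH factor of endocrine progenitors, was at 18.3 and 13.3 in the controls against 129.9 and 136 after knockdown, an 8.40-fold ratio (log2 fold change 3.01, SE 0.28, adjusted p = 2.38e-04 in limma). Both knockdown libraries lay far above both controls for each of these genes. The controls of ATOH1 were under the minimum mean of 10, so it entered the test only because of its knockdown values and its p is not given. CREB3L1, a transcription factor of secretory cells bound to the endoplasmic reticulum, rose from 144 and 122 to 333 and 315 (log2 fold change 1.28, SE 0.15, adjusted p = 8.52e-04 in limma). NEUROG3 and CREB3L1 were also called without any 1 library, and in the fit without the variance trend they were not (adjusted p = 0.0919 and 0.0949 in limma).

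The other secretory fate genes moved less. KLF4, a factor of differentiated goblet cells, rose by 0.33 on the log2 scale (adjusted p = 0.0410 in limma), a call lost without control replicate 1 (log2 fold change 0.20, adjusted p = 0.162) or either knockdown library (0.101 and 0.179). XBP1, which expands the secretory apparatus, fell by 0.29 (adjusted p = 0.0381 in limma), a call lost after quantile normalization (adjusted p = 0.0623) and without control replicate 2 or either knockdown library (0.178, 0.164 and 0.107). SPDEF, a goblet cell factor, had 79.6 ± 2.64 and 84.7 ± 8.60 normalized counts (SD, n = 2) with overlapping groups, and FOXA2 was not called (adjusted p = 0.231 in limma). GFI1 was at most at 5.78. MUC2, the main goblet cell mucin, was listed at 0 in 3 libraries and at 0.897 in siHNF4A 1. Leaving ATOH1 out, 3 of the 6 other tested genes were called higher and 1 lower, beside 6.02% and 8.11% of all tested genes. The list was chosen with earlier results of these data known, so this count is no support for a pattern.

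**Figure D3:**
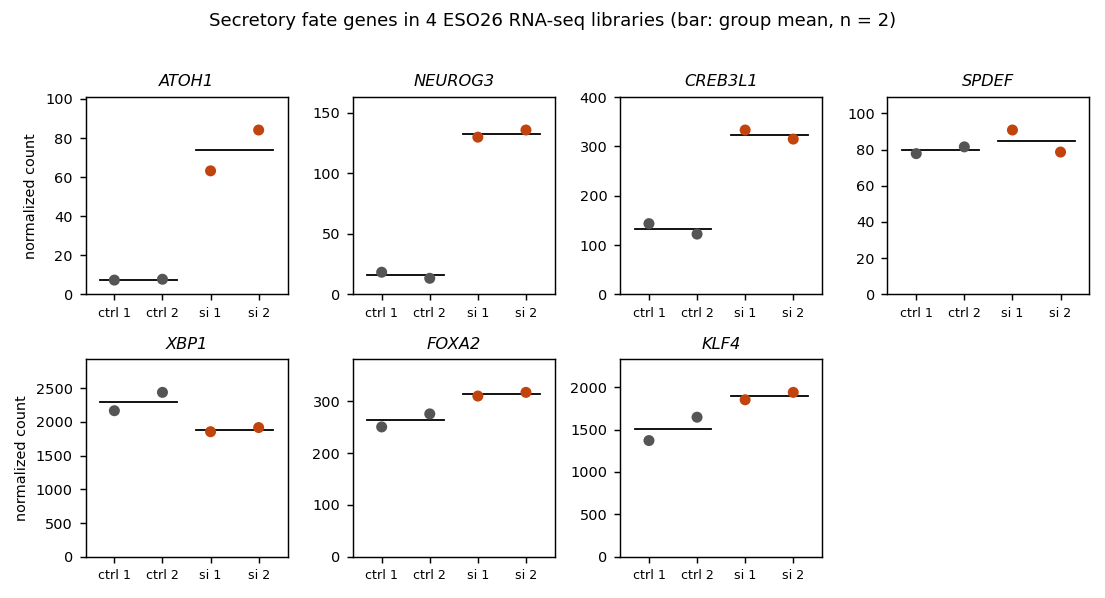
Normalized count (vertical axes, each starting at 0) of the 7 tested secretory fate genes in control libraries 1 and 2 (grey) and siHNF4A libraries 1 and 2 (orange), with a bar at each group mean (n = 2). ATOH1, NEUROG3 and CREB3L1 are well separated, XBP1 is lower in the knockdown libraries, and the groups overlap for SPDEF.

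The 5 tested genes whose 4 log2 values, centred on their own mean, lay nearest to those of NEURL1 were UGT2B17, RNF183, CTD-2006K23.1, VWF and RP11-517C16.2. Their Euclidean distances over the 4 libraries were 0.157, 0.341, 0.347, 0.360 and 0.371 on the log2 scale. UGT2B17, which conjugates steroids and belongs to a family of similar genes, had 81.9 and 60.0 normalized counts in the controls against 289 and 252 after knockdown. RNF183, a RING-finger ubiquitin ligase, had 12.1 and 8.11 in the controls against 60.6 and 36.5 after knockdown. Likeness over 4 libraries in which the knockdown is the main difference finds genes that rose by a like amount.

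**Figure D4:**
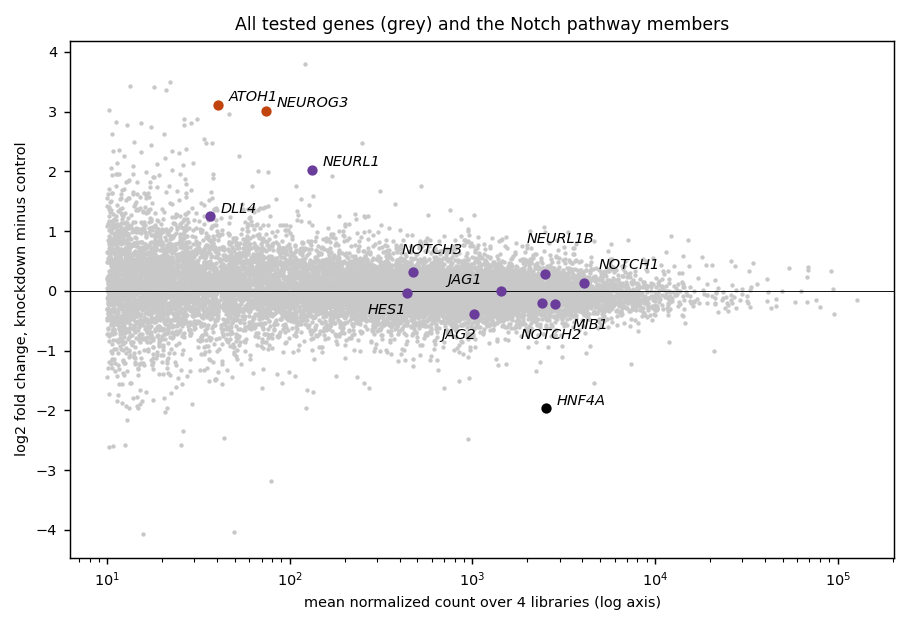
Log2 fold change, knockdown minus control (vertical axis), against the mean normalized count over the 4 libraries (horizontal log axis) for the 15577 tested genes (grey), with the 10 members in purple, ATOH1 and NEUROG3 in orange and HNF4A in black. NEURL1 at 2.03 and DLL4 at 1.24 lie above 1, and the other 8 members lie between -0.39 and 0.32.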

How the data were processed

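RNA-seq of 2 siHNF4A and 2 control libraries of ESO26 was used, grouped by the sample titles. The authors deposited 1 table of normalized counts per gene symbol, a signal value that is fractional and never negative. Bowtie, Bowtie2, Trim Galore, Picard, MACS2 and the build hg19 are named, per the submitters' processing notes. The counting program, annotation and normalization are not given in the sources used here. Between 11.8% and 23.5% of low values lay within 2% of whole multiples of the most frequent value found in 1 library only, so whole reads were not recovered, depth is unknown and no count model was fitted. The 4C libraries and the peak lists were not analysed here. With no hg19 annotation at hand, the planned distances of peaks to the members were not computed.

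Genes with a mean of at least 10 were tested with limma 3.58.1 in R 4.3.3 (lmFit, eBayes with trend) on log2(normalized count + 1), with Benjamini-Hochberg adjustment over 15577 genes and a threshold of 0.05. That scale understates the change of low genes. An exact permutation test of 2 against 2 libraries cannot go below p = 0.333, so adjusted p-values rest on variances shared across genes. The script was tested on simulated data. Alternatives were other pseudocounts, filters and scalings, no trend, the replicate number as a block, and leaving out each library. Named were HNF4A, the members, called genes of the lists and up to 2 uncalled genes of each list with the highest means, the 5 genes nearest to NEURL1 and 3 neighbours on each side. Further uncalled list genes are named to account for each list, outside this rule. Single values of 1 list gene are not reported here, and it is included in the counts of the lists. Members and lists were chosen with earlier results of these data known. Positions and promoter windows come from RefSeq, and 19440 symbols of the table match a current symbol.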

Additional observations from a re-analysis of the deposited data

How the results depend on the processing

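Each alternative was run on the whole table. Counts over the 61 list genes include ATOH1 and NOTCH4, which passed the filter only through their knockdown values. The log2 fold change of NEURL1 stayed between 1.94 and 2.04 with all 4 libraries, and between 1.73 and 2.33 with 1 library left out. Without the variance trend 0 genes were called in limma (3524 at an unadjusted p under 0.05), so 0 of the 9 other members (3 unadjusted) and 0 of the 61 list genes (17 unadjusted) were called. HNF4A then stood at -1.97 (adjusted p = 0.0919), NEURL1B at 0.29, JAG2 at -0.39 and DLL4 at 1.24, none past the threshold. Without the filter 726 genes were called of 30247 tested (5044 at an unadjusted p under 0.05 in limma), in place of 2202 of 15577. Of the list genes 5 were called in place of 16, and of the 9 members 0 (5 unadjusted). NEURL1B at 0.29, JAG2 at -0.39 and DLL4 at 1.24 were again not called. That setting tests more genes. MIB1 passed the threshold with a pseudocount of 5 (-0.22, adjusted p = 0.0499) and with the filter at 50 (-0.22, adjusted p = 0.0374). ATOH1 and DLL4 had means under 50 and were not tested in that fit. After quantile normalization JAG1 was at 0.032 in place of -0.011, and the list genes gave 12 higher and 1 lower calls in place of 11 and 5. All tested genes gave 1041 higher and 1026 lower in place of 938 and 1264, and the cause was not tested.

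With 1 library left out, the lone library of its group being assumed to vary like the other group, the calls numbered 1013 to 2449 over all genes, 7 to 14 over the list genes and 1 to 3 over the members other than NEURL1. Log2 fold changes ranged from -2.11 to -1.82 for HNF4A, 0.22 to 0.36 for NEURL1B, -0.46 to -0.32 for JAG2, 1.10 to 1.39 for DLL4, 0.13 to 0.51 for NOTCH3, -0.092 to 0.071 for JAG1 and -0.084 to 0.026 for HES1. The signs of JAG1 and HES1, neither of them called, thus changed: JAG1 was at 0.064 without control replicate 2 and 0.071 without siHNF4A replicate 1, and HES1 at 0.026 without control replicate 2.

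The replicate numbers of the titles did not pair the libraries (correlation of deviations -0.019 over 15577 genes). With the replicate block 2428 genes were called (1069 higher and 1359 lower), with 17 list genes in place of 16. The further list gene was PSEN2, and no call among HNF4A, the members and the list genes was lost. For the 20 other genes followed through the alternatives, leaving out ATOH1, REG4 and VWF, 178 values kept their direction and side of the threshold, 56 kept their direction and lost the call, and 5 kept their direction and gained it.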

Other observations

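Genes that act beside or after ATOH1 and NEUROG3 were looked up after the values of that pair had been seen, so their selection is no support for a pattern. INSM1, a zinc-finger factor of endocrine progenitors, was at 6.11 and 17.8 normalized counts in the controls against 57.5 and 68.8 after knockdown (log2 fold change 2.47, SE 0.46, adjusted p = 0.0075 in limma), a call lost without siHNF4A replicate 2 (adjusted p = 0.0627). The control libraries of INSM1 differed, and leaving out control replicate 1 gave a log2 fold change of 1.77, control replicate 2 one of 3.17. PAX4, another endocrine factor, had 5.45 ± 1.39 and 18.1 ± 7.30 (SD, n = 2). As its controls were under the minimum mean of 10, it entered the test only through its knockdown values and no p is given. Later endocrine genes stayed low, with NEUROD1 at most at 3.03, RFX6 at most at 8.10 and the hormone gene GHRL at most at 1.17. CHGA and CHGB, granule proteins of endocrine cells, were at most at 3.99 and 3.52, and SYP had 18.5 ± 2.13 and 22.8 ± 3.69 (SD, n = 2, adjusted p = 0.671 in limma).

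On the goblet side, REG4, a secreted lectin of goblet and endocrine cells, was at 5.06 and 8.62 normalized counts in the controls against 51.4 and 59.3 after knockdown (log2 fold change 2.88, SE 0.41). Its controls were under the minimum mean of 10, so it entered the test only through its knockdown values and no p is given. AGR2, a protein disulfide isomerase needed for mucin folding, rose from 1699 ± 169 to 2579 ± 81.1 (SD, n = 2, log2 fold change 0.60, adjusted p = 0.0017 in limma). TFF3 and FCGBP, products of mature goblet cells, were not called (adjusted p = 0.408 and 0.829 in limma), nor was SOX9, a factor of Paneth and progenitor cells, at 2960 ± 150 and 2879 ± 87.1 (SD, n = 2, log2 fold change -0.039, adjusted p = 0.751 in limma). Among other bHLH factors, HES6, which counteracts HES1, rose from 606 ± 27.8 to 1018 ± 107 (SD, n = 2, log2 fold change 0.74, adjusted p = 0.0017 in limma), and ASCL2, a Wnt-driven stem cell factor, rose from 866 ± 12.3 to 1318 ± 166 (log2 fold change 0.60, adjusted p = 0.0043 in limma). BHLHA15, a bHLH factor of secretory cells, was not called (log2 fold change -0.25, adjusted p = 0.646 in limma). ID1 and ID2, which block bHLH factors, were lower in both knockdown libraries without a call (adjusted p = 0.241 and 0.166 in limma), and ID3 was at 68.6 ± 14.4 and 71.0 ± 2.49 (SD, n = 2).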
